A study of Rattus norvegicus with 8 samples.

Results

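The cholesterol and fatty acid synthesis genes were examined as 32 genes taken by symbol out of the 23487 genes counted in peritoneal macrophages. They comprise 7 enzymes that lead from acetyl-CoA to farnesyl diphosphate and 11 that lead on to cholesterol, starting with squalene synthase. The others are 5 regulators of these enzymes, the sterol carrier Stard4, and 8 enzymes that make, elongate or desaturate fatty acids. Each of the 32 symbols matched exactly 1 row of the table.

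Cells build cholesterol from acetyl-CoA through mevalonate, isoprenoid units, squalene and lanosterol, whereas fatty acid synthesis starts from the carboxylation of the same acetyl-CoA. Both arms are controlled by the sterol regulatory element-binding proteins, which Srebf1 and Srebf2 encode. Scap escorts these proteins from the endoplasmic reticulum to the Golgi for cleavage, and Insig1 and Insig2 hold Scap back when sterols are plentiful. Macrophages also take up large amounts of lipid by phagocytosis, and oxysterols that accumulate then activate the liver X receptors, which control sterol efflux and fatty acid synthesis genes.

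RNA was sequenced from peritoneal macrophages of female Wistar rats aged 8 weeks, collected 15 days after an intraperitoneal injection of carbon nanotubes. The first group (4 rats, numbered 3, 5, 10 and 11) received CNT-7, the needle-like multiwalled nanotube MWCNT-XNRI-7. The other group (4 rats, numbered 1, 2, 12 and 13) received CNT-T, a nanotube of tangled shape. Cells were sorted on high CD11b/c and dim His48 staining, a gate that does not separate macrophage subsets, and every library came from a separate rat. Untreated rats were not analysed here, so each difference given is one between both particles. Counts assigned to genes came to 30215063, 29856862, 28335965 and 27394995 in CNT-7 rats 3, 5, 10 and 11, and to 31495049, 33732981, 30296008 and 27195157 in CNT-T rats 1, 2, 12 and 13. Levels are in CPM, the counts per 1000000 counts of a library whose size was normalised by TMM (trimmed mean of M values), and 3 counts corresponded to between 0.0887 and 0.109 CPM. Floors of this kind cover counting error only.

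The sorted cells carried macrophage markers in every rat. Csf1r, the receptor for the macrophage growth factor, was at 1230, 1230, 1130 and 1300 CPM in CNT-7 rats 3, 5, 10 and 11 and at 1690, 1590, 1480 and 1360 CPM in CNT-T rats 1, 2, 12 and 13. Cd68 lay between 496 and 864 CPM over the 8 rats. Of 8 macrophage markers, 5 (62.5%) were lower and 1 (12.5%) was higher in CNT-7, beside 14.0% and 13.9% of all genes tested. The lower ones included Adgre1 (log2 fold change -1.13) and Cd163 (-1.69). In these bulk samples, fewer cells of a type and less RNA per cell cannot be told apart.

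Of the 32 members, 29 passed the filter on low counts and were tested. At an adjusted p-value under 0.10, 13 of the 29 (44.8%) were called, compared with 27.9% of the 12124 genes tested. Of these, 9 members (31.0%) were higher in CNT-7, beside 13.9% of all genes tested, and 4 members (13.8%) were lower, beside 14.0%. Groups did not overlap in 10 of the 29 members (34.5%), beside 24.9% of all genes tested. Most differences were small. Expressed as log2 of the ratio of CNT-7 to CNT-T, the fold change of the members ran from -1.07 to 0.96, with a median of 0.10 beside 0.0083 over all genes tested, and Fasn was the 1 member that changed at least 2-fold, a size that 9.06% of all genes tested reached. With 1 rat fewer, the higher count was 4 without CNT-7 rat 3, CNT-7 rat 5 or CNT-T rat 12, where the share of all genes tested that were higher was 11.2%, 10.3% and 10.4%. The lower count was 2 without CNT-7 rat 5, CNT-7 rat 10, CNT-T rat 2 or CNT-T rat 12, where 10.9%, 11.9%, 11.2% and 10.6% of all genes tested were lower.

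**Figure D1:**
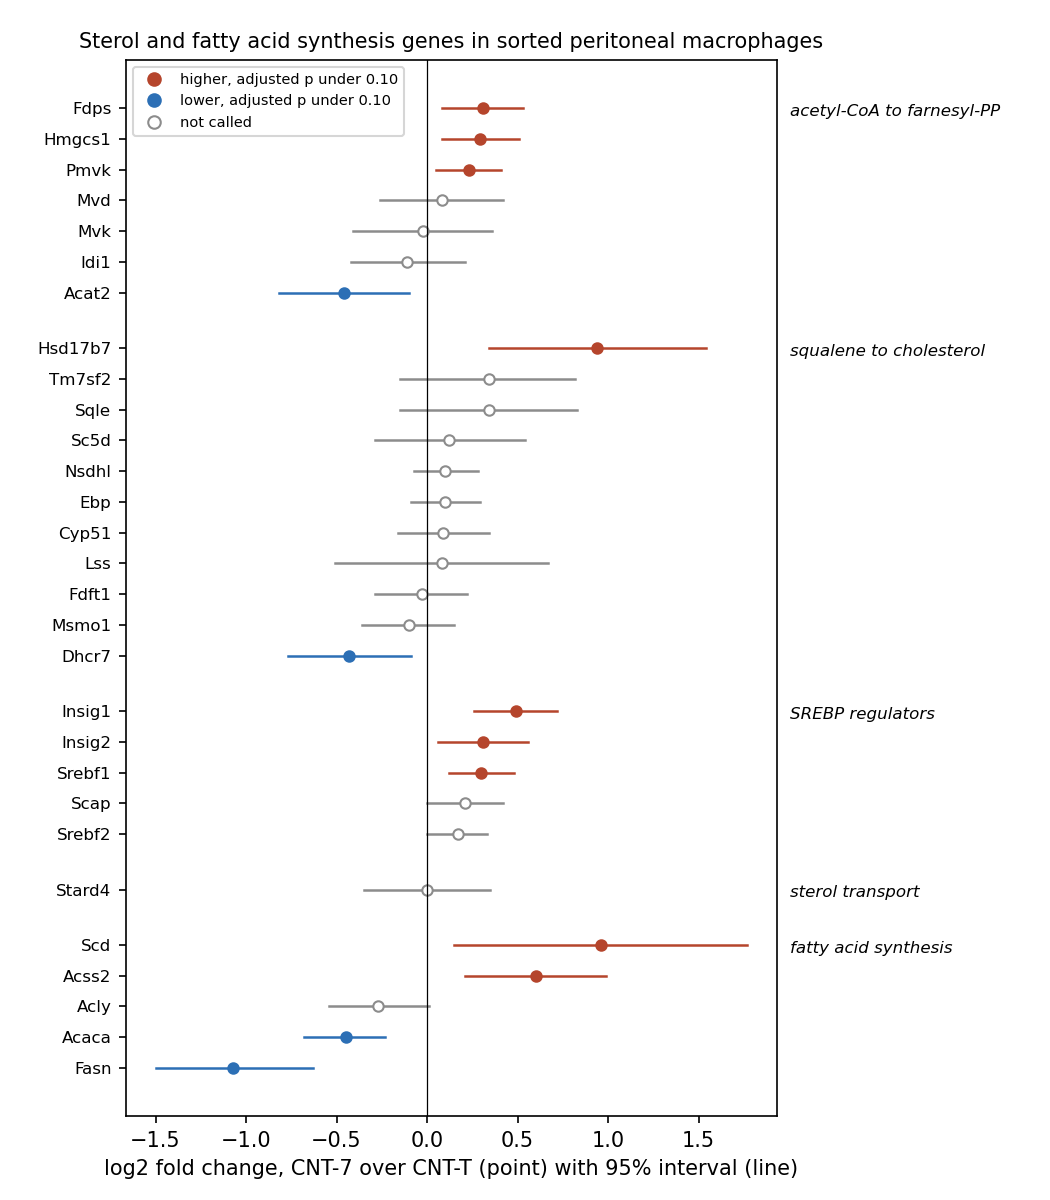
Log2 fold change (CNT-7 relative to CNT-T) on the horizontal axis for the 29 tested members, grouped by role on the vertical axis, with each point the edgeR estimate and each line its 95% interval. Filled red points are the 9 members called higher, filled blue points the 4 called lower, and open grey points the 16 not called. Fasn lies farthest to the left at -1.07, and all 5 regulators lie to the right of 0.

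In the mevalonate segment, 3 of 7 enzymes (42.9%) were higher and 1 (14.3%) was lower in CNT-7, beside 13.9% and 14.0% of all genes tested. Hmgcs1, which makes HMG-CoA, was at 17.3, 16.2, 14.5 and 14.8 CPM in CNT-7 rats 3, 5, 10 and 11 and at 13.1, 11.9, 12.2 and 14.0 CPM in CNT-T rats 1, 2, 12 and 13. All 4 CNT-7 values lay above the 4 CNT-T values, although CNT-7 rat 10 and CNT-T rat 13 were close. The log2 fold change was 0.29 (SE 0.096, n = 4 and 4; adjusted p = 0.058, edgeR's quasi-likelihood test, Benjamini-Hochberg adjusted). Pmvk, the kinase that turns phosphomevalonate into its diphosphate, was at 19.6, 18.3, 19.5 and 17.6 CPM after CNT-7 and at 14.8, 17.1, 16.2 and 15.8 CPM after CNT-T, in the same order of rats. These groups did not overlap either, and CNT-T rat 2 came nearest to the CNT-7 rats. Its log2 fold change was 0.23 (SE 0.08; adjusted p = 0.071, edgeR's quasi-likelihood test, Benjamini-Hochberg adjusted).

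Fdps, the synthase of farnesyl diphosphate, was higher with a log2 fold change of 0.31, with CNT-T rat 2 at 49.4 CPM inside the CNT-7 range of 48.7 to 57.9 CPM. Acat2, which joins acetyl-CoA units at the start of the segment, was lower by a log2 fold change of -0.46. In Acat2 the CNT-7 rats 3, 5 and 10 were at 4.73, 4.72 and 4.62 CPM, whereas CNT-7 rat 11 was at 6.95 CPM, within the CNT-T range of 6.78 to 8.10 CPM. Reads of Acat2 may be shared with a similar gene, so its level is uncertain. Mvk (-0.02), Mvd (0.08) and Idi1 (-0.11) were not called, and their 95% intervals together ran from -0.42 to 0.42. All 4 calls of the mevalonate segment were lost in some fits with 1 rat fewer, while over the 13 alternatives the log2 fold change stayed between 0.24 and 0.34 for Hmgcs1, 0.20 and 0.27 for Pmvk, 0.25 and 0.39 for Fdps, and -0.62 and -0.40 for Acat2. The adjusted p of Hmgcs1 (edgeR or DESeq2, Benjamini-Hochberg) was 0.156 and 0.141 without CNT-7 rats 3 and 5, and 0.141 and 0.145 without CNT-T rats 2 and 12, within a range of 0.049 to 0.156 over its 13 alternatives. That of Pmvk (edgeR or DESeq2, Benjamini-Hochberg) ran from 0.0677 to 0.169, and was 0.169, 0.117 and 0.14 without CNT-7 rats 3, 5 and 10, 0.136, 0.136 and 0.123 without CNT-T rats 1, 12 and 13, and 0.115 with no filter on low counts. Fdps ranged from 0.0189 to 0.145 in adjusted p (edgeR or DESeq2, Benjamini-Hochberg), with 0.145 without CNT-7 rat 3 and 0.121, 0.122 and 0.126 without CNT-T rats 1, 12 and 13. For Acat2 the range was 0.00974 to 0.173 (edgeR or DESeq2, Benjamini-Hochberg adjusted p), with 0.166, 0.169 and 0.153 without CNT-7 rats 3, 5 and 10 and 0.173, 0.121 and 0.116 without CNT-T rats 2, 12 and 13.

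From squalene synthase to cholesterol, 1 of 11 enzymes was higher and 1 was lower. That share of 18.2% called lies below the 27.9% of all genes tested. Hsd17b7, a ketosteroid reductase that takes part in removing the methyl groups of lanosterol, was at 1.25, 1.88, 1.48 and 1.56 CPM in CNT-7 rats 3, 5, 10 and 11. In CNT-T rats 1, 2, 12 and 13 it was at 0.717, 0.562, 0.824 and 1.11 CPM. Every CNT-7 rat was above every CNT-T rat, with CNT-7 rat 3 and CNT-T rat 13 nearest to each other. Mean levels of 1.54 ± 0.259 and 0.803 ± 0.231 CPM (SD, n = 4) gave a log2 fold change of 0.94 (SE 0.27; adjusted p = 0.034, edgeR's quasi-likelihood test, Benjamini-Hochberg adjusted). Levels this low rested on few reads, and without CNT-7 rat 5 the adjusted p was 0.101, the highest of 13 alternatives that began at 0.0219 (edgeR or DESeq2, Benjamini-Hochberg). Among rats numbered up to 5 the log2 ratio of the Hsd17b7 means was 1.29, and among rats numbered from 10 it was 0.65.

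Dhcr7, which reduces 7-dehydrocholesterol to cholesterol, was lower, with a log2 fold change of -0.43, and its groups overlapped because CNT-7 rat 3 was at 6.73 CPM and CNT-T rat 1 at 6.68 CPM. This call was lost in 6 of the 8 fits with 1 rat fewer, while the log2 fold change stayed between -0.53 and -0.34. Its adjusted p (edgeR or DESeq2, Benjamini-Hochberg) ran from 0.0469 to 0.174 over 13 alternatives, and was 0.12, 0.151 and 0.127 without CNT-7 rats 5, 10 and 11 and 0.174, 0.131 and 0.117 without CNT-T rats 2, 12 and 13. The other 9 enzymes of the segment were not called. Sqle, the epoxidase that is a rate-limiting step after squalene, had a log2 fold change of 0.34, and Tm7sf2, a sterol reductase, also had 0.34. Without CNT-T rat 13, which had the highest Sqle level of its group, Sqle was higher at an adjusted p of 0.091, within a range of 0.091 to 0.555 (edgeR or DESeq2, Benjamini-Hochberg). Sc5d, the desaturase of lathosterol, stood at 0.12, Nsdhl and Ebp, which act on the ring system, each at 0.10, the demethylase Cyp51 at 0.09, the cyclase Lss at 0.08, squalene synthase Fdft1 at -0.03 and the methyl oxidase Msmo1 at -0.10. Their 95% intervals differed in width, that of Nsdhl running from -0.07 to 0.28 and that of Lss from -0.51 to 0.67. Over all 18 sterol synthesis enzymes, 4 were higher (22.2%, beside 13.9% of all genes tested) and 2 lower (11.1%, beside 14.0%), and the median log2 fold change was 0.10.

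Among the 5 regulators, 3 (60.0%) were higher in CNT-7 and 0 lower, beside 13.9% and 14.0% of all genes tested, and the log2 fold change was above 0 in all 5 of them. Insig1, the sterol-regulated anchor of Scap, was at 364, 372, 355 and 446 CPM in CNT-7 rats 3, 5, 10 and 11 and at 247, 285, 254 and 310 CPM in CNT-T rats 1, 2, 12 and 13. The groups did not overlap, and CNT-7 rat 11 stood highest while CNT-T rat 1 stood lowest. Mean levels of 384 ± 42.0 and 274 ± 29.3 CPM (SD, n = 4) gave a log2 fold change of 0.49 (SE 0.10; adjusted p = 0.0092, edgeR's quasi-likelihood test, Benjamini-Hochberg adjusted).

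Srebf1, whose protein mainly drives fatty acid synthesis genes, was at 30.6, 36.1, 32.7 and 37.0 CPM after CNT-7 and at 29.0, 27.0, 28.1 and 26.9 CPM after CNT-T, in the same order of rats. The CNT-T rats lay within a narrow band, and all 4 CNT-7 rats were above it. Its log2 fold change was 0.30 (SE 0.079; adjusted p = 0.025, edgeR's quasi-likelihood test, Benjamini-Hochberg adjusted). Insig2, a paralog of Insig1 that also retains Scap, was at 11, 10.8, 13.4 and 10.1 CPM in the CNT-7 rats and at 8.87, 9.58, 8.97 and 9.17 CPM in the CNT-T rats. No values crossed, CNT-7 rat 10 being the highest and CNT-T rat 2 the nearest to the CNT-7 rats. Its log2 fold change was 0.31 (SE 0.11; adjusted p = 0.082, edgeR's quasi-likelihood test, Benjamini-Hochberg adjusted). The Insig2 call held in 4 of 13 alternatives, with an adjusted p (edgeR or DESeq2, Benjamini-Hochberg) between 0.0618 and 0.184 and a log2 fold change between 0.22 and 0.36. It was 0.128, 0.118 and 0.184 without CNT-7 rats 3, 5 and 10, 0.14, 0.121, 0.169 and 0.132 without CNT-T rats 1, 2, 12 and 13, 0.116 with no filter on low counts and 0.10 with a term that sets rats numbered up to 5 apart from those numbered from 10 (a term for the number range).

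Srebf2, whose protein mainly drives cholesterol synthesis genes, was at 54.8, 49.6, 53.7 and 48.6 CPM in CNT-7 rats 3, 5, 10 and 11 and at 49.2, 45.7, 47.7 and 41.6 CPM in CNT-T rats 1, 2, 12 and 13. CNT-7 rat 11 lay just below CNT-T rat 1, so the groups overlapped. Scap was at 39.1, 45.1, 46.7 and 41.7 CPM after CNT-7 and at 40.1, 41.1, 32.9 and 34.8 CPM after CNT-T. Here CNT-7 rat 3 fell among the CNT-T rats, of which rats 12 and 13 were lowest. Neither gene was called, with log2 fold changes of 0.17 for Srebf2 and 0.21 for Scap and adjusted p-values of 0.16 and 0.15 (edgeR's quasi-likelihood test, Benjamini-Hochberg adjusted). Stard4, which carries cholesterol between membranes inside the cell, had the same mean of 24.1 CPM in both groups, and its 95% interval of the log2 fold change ran from -0.35 to 0.35. Its spread was wider after CNT-T, between 17.4 CPM in rat 1 and 28.3 CPM in rat 12.

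**Figure D2:**
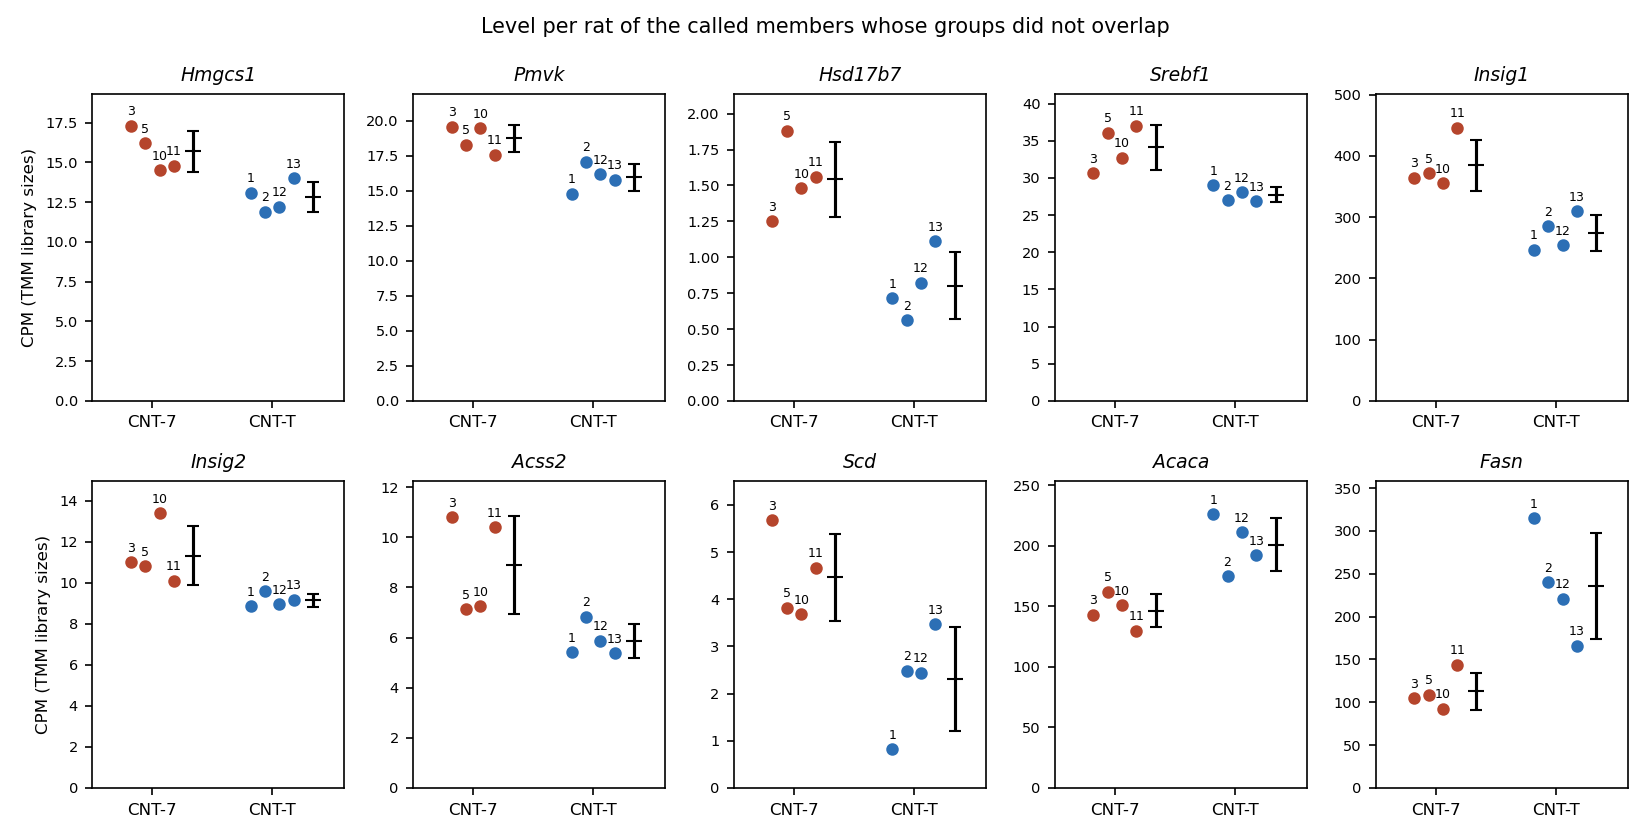
Level in CPM on a linear axis from 0 for each rat, with the rat number above each point, in CNT-7 (red) and CNT-T (blue), for the 10 called members whose groups did not overlap. The bar beside each group is its mean ± SD (n = 4). Insig1 lies at 355 CPM or more in the CNT-7 rats and at 310 CPM or less in the CNT-T rats, and Fasn is ordered the other way, with CNT-T rat 1 highest at 315 CPM.

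Fatty acid synthesis enzymes moved in both directions, with 2 of 5 tested higher (40.0%, beside 13.9% of all genes tested) and 2 lower (40.0%, beside 14.0%). Their log2 fold changes had a median of -0.27, which was -0.17 without CNT-T rat 1 and -0.36 without CNT-T rat 13. Fasn, the synthase that builds palmitate, was at 105, 109, 92.5 and 144 CPM in CNT-7 rats 3, 5, 10 and 11 and at 315, 240, 221 and 166 CPM in CNT-T rats 1, 2, 12 and 13. All CNT-T rats were above all CNT-7 rats, but they spread widely, with rat 1 highest and rat 13 lowest, while CNT-7 rat 11 was the nearest to them. Means of 113 ± 21.9 and 235 ± 61.6 CPM (SD, n = 4) gave a 2.09-fold lower level after CNT-7, a log2 fold change of -1.07 (SE 0.19; adjusted p = 0.0049, edgeR's quasi-likelihood test, Benjamini-Hochberg adjusted). Among rats numbered up to 5 the log2 ratio of the means was -1.37, and among rats numbered from 10 it was -0.71. The same ratios were 1.53 and 0.50 for Scd, and over the 29 tested members they had opposite signs in 9. Of those 9, 0 were called with all rats. The ratios and the calls came from the same rats, so the ratios do not check the calls separately.

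Acaca, the acetyl-CoA carboxylase that makes malonyl-CoA for Fasn, was at 143, 162, 151 and 130 CPM after CNT-7 and at 226, 175, 211 and 192 CPM after CNT-T, in the same order of rats. CNT-T rat 2 was the nearest to the CNT-7 rats, and the groups did not overlap. The log2 fold change was -0.45 (SE 0.099; adjusted p = 0.01, edgeR's quasi-likelihood test, Benjamini-Hochberg adjusted). Acly, which supplies cytosolic acetyl-CoA from citrate, was at 524, 549, 463 and 462 CPM in the CNT-7 rats and at 710, 610, 607 and 474 CPM in the CNT-T rats. CNT-T rat 13 alone lay within the CNT-7 range. With all rats the log2 fold change of -0.27 was not called (adjusted p = 0.16, edgeR's quasi-likelihood test, Benjamini-Hochberg adjusted), and without CNT-T rat 13 it was called at an adjusted p of 0.0347, as it was with a term for the number range (0.0898), within a range of 0.0347 to 0.336 over 13 alternatives by edgeR or DESeq2.

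Acss2, the other cytosolic source of acetyl-CoA, which activates free acetate, went the opposite way to Fasn and Acaca. It was at 10.8, 7.14, 7.26 and 10.4 CPM in CNT-7 rats 3, 5, 10 and 11 and at 5.41, 6.83, 5.87 and 5.37 CPM in CNT-T rats 1, 2, 12 and 13. CNT-7 rats 3 and 11 stood well above the rest, whereas CNT-7 rats 5 and 10 were just above CNT-T rat 2. Its log2 fold change was 0.60 (SE 0.17; adjusted p = 0.036, edgeR's quasi-likelihood test, Benjamini-Hochberg adjusted).

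Scd, the stearoyl-CoA desaturase that makes oleate, was at 5.68, 3.82, 3.68 and 4.67 CPM after CNT-7 and at 0.815, 2.48, 2.44 and 3.47 CPM after CNT-T, in the same order of rats. CNT-T rat 1 was far below the other CNT-T rats, and CNT-T rat 13 came close to CNT-7 rat 10. The log2 fold change was 0.96 (SE 0.36; adjusted p = 0.094, edgeR's quasi-likelihood test, Benjamini-Hochberg adjusted). Of all Scd alternatives the adjusted p (edgeR or DESeq2, Benjamini-Hochberg) lay between 0.039 and 0.205 and the log2 fold change between 0.68 and 1.22. The adjusted p was 0.205, 0.131, 0.106 and 0.136 without CNT-7 rats 3, 5, 10 and 11 and 0.156 and 0.163 without CNT-T rats 2 and 12. Scd2, a close paralog outside the 32 members, was at 394, 365, 215 and 314 CPM in the CNT-7 rats and at 82.4, 190, 143 and 203 CPM in the CNT-T rats. Again CNT-T rat 1 was lowest and no values crossed, and the log2 fold change was 1.06 (SE 0.28; adjusted p = 0.023, edgeR's quasi-likelihood test, Benjamini-Hochberg adjusted). Reads of Scd, Scd2 and Scd4 can be divided between these similar transcripts, so the separate values are uncertain.

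Elovl6, Fads1 and Fads2, which elongate and desaturate longer chains, were below the filter on low counts. Elovl6 had 1, 0, 1 and 3 counts in the CNT-7 rats and 0 in each CNT-T rat. The desaturase Fads1 had 10, 5, 4 and 6 counts in CNT-7 rats 3, 5, 10 and 11 and 10, 40, 9 and 42 counts in CNT-T rats 1, 2, 12 and 13, and its neighbour in the pathway Fads2 had 8, 1, 0 and 1 counts against 1, 18, 8 and 17. Both desaturases were thus highest in CNT-T rats 2 and 13 and overlapped between the groups. With no filter on low counts, Fads1 was called lower in CNT-7 at an adjusted p of 0.0557, while Fads2 (0.211) and Elovl6 (0.186) were not called (edgeR's quasi-likelihood test, Benjamini-Hochberg adjusted). No other of the 13 alternatives kept these 3 genes.

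Members also differed in how they varied among rats of the same group, a pattern chosen for description after the values were seen. Of the 18 sterol synthesis enzymes, 14 (77.8%) had a larger SD of log2 CPM among the CNT-T rats than among the CNT-7 rats, compared with 48.6% of all genes tested, and their median SD was 0.21 after CNT-T and 0.128 after CNT-7. CNT-T rat 1 had the lowest level of its group in 9 of the 18 (50.0%), beside 30.0% of all genes tested. Other rats were extremes as often, CNT-T rat 2 being the highest of its group in 9 (50.0%, beside 25.1%), CNT-7 rat 3 the highest in 9 (50.0%, beside 19.2%) and CNT-7 rat 11 the lowest in 9 (50.0%, beside 27.6%). Sc5d was at 9.03, 11.4, 14.6 and 17.0 CPM in CNT-T rats 1, 2, 12 and 13, and Idi1 at 8.41, 10.6, 11.8 and 13.2 CPM in the same rats. Rat 1 was lowest and rat 13 highest in both, the reverse of the order of Fasn and Acly. Not all sterol synthesis enzymes had this order. Mvk was at 13.7, 10.8, 10.7 and 7.77 CPM in CNT-T rats 1, 2, 12 and 13, the same order as Fasn and Acly. Over the 18 enzymes, CNT-T rat 13 was the highest of its group in 7 (38.9%, beside 29.2% of all genes tested). It was the lowest in 5 (27.8%, beside 29.6%). The mean of log2 CPM relative to the 8 rats, over the sterol synthesis enzymes, was -0.155 in CNT-T rat 1 and 0.029 in CNT-T rat 13, and it ran from 0.017 to 0.098 in the CNT-7 rats, so that CNT-T rat 13 lay within the CNT-7 range.

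**Figure D3:**
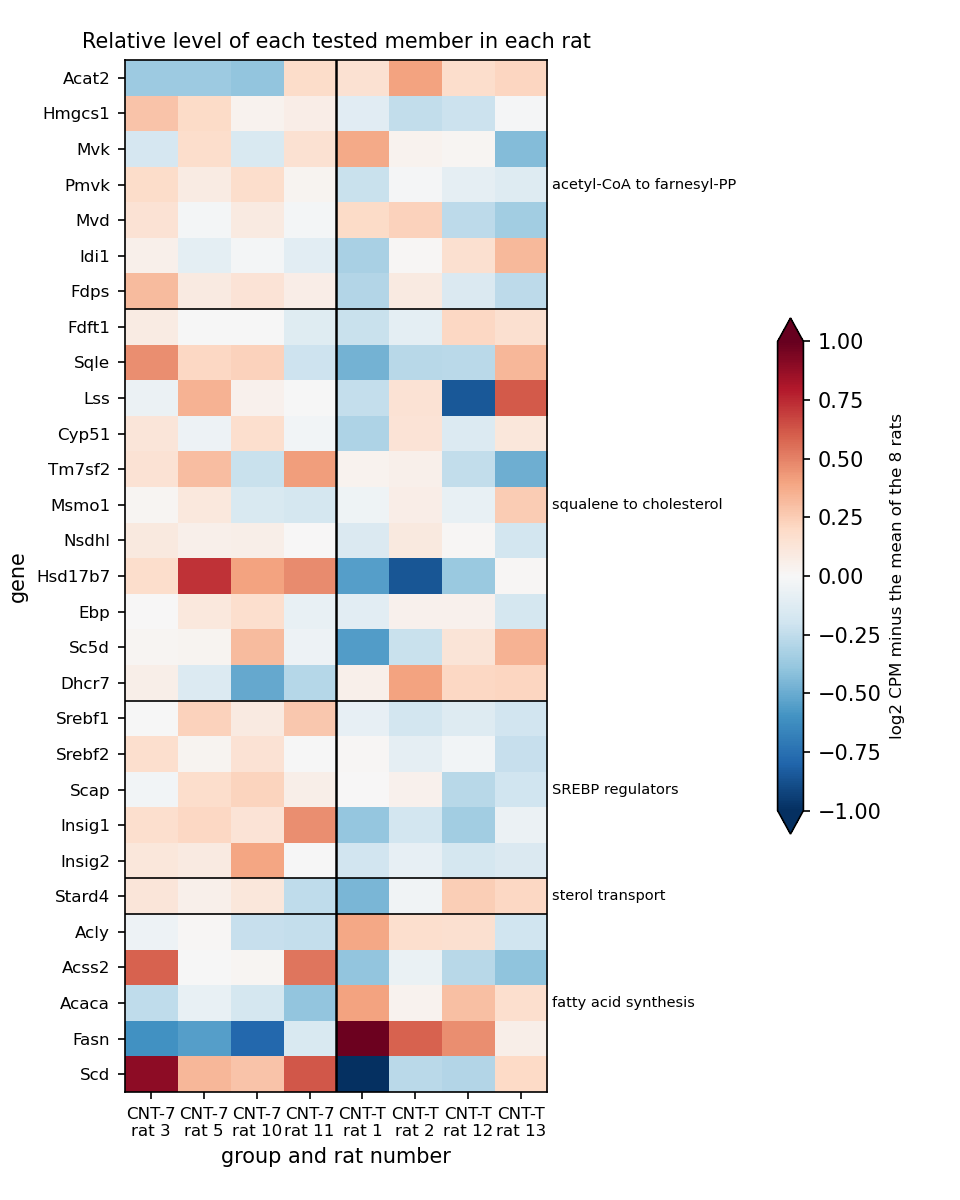
Log2 CPM (with 0.1 CPM added) of each of the 29 tested members in each of the 8 rats, minus the gene's mean over the 8 rats, with genes in rows by role and rats in columns. Red is above and blue below the gene's mean, and colours are capped at 1 and -1. Fasn and Scd differ between the groups in opposite directions, and CNT-T rat 1 is the extreme of its group in both.

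Other genes of the sterol pathway were counted from lists chosen by function. Mbtps1 and Mbtps2 are named from them for their roles, after their values were seen. Among 15 further isoprenoid and sterol genes, 3 were higher and 2 lower (33.3% called, beside 27.9% of all genes tested), and their log2 fold changes had a median of 0.04. Cyb5r3, which passes electrons to the sterol and fatty acid desaturases, was higher (log2 fold change 0.46), whereas Por, which passes electrons to Cyp51 and Sqle, was lower (-0.51), and neither changed its call in any of 13 alternatives. The protein prenylation genes Icmt (0.29) and Fnta (0.23) were higher and Dhdds (-0.28), of dolichol synthesis, was lower. The adjusted p of Icmt (edgeR or DESeq2, Benjamini-Hochberg) was 0.139, 0.12 and 0.127 without CNT-7 rats 3, 5 and 10 and 0.129, 0.138 and 0.13 without CNT-T rats 2, 12 and 13, of 0.0249 to 0.139 in all. For Fnta the adjusted p (edgeR or DESeq2, Benjamini-Hochberg) was 0.168 and 0.162 without CNT-7 rats 3 and 10, 0.118, 0.196 and 0.129 without CNT-T rats 1, 12 and 13 and 0.104 with no filter on low counts, of 0.0597 to 0.196 in all. For Dhdds it was 0.10 without CNT-7 rat 5 and 0.103, 0.108 and 0.111 without CNT-T rats 2, 12 and 13, of 0.0352 to 0.111 in all (edgeR or DESeq2, Benjamini-Hochberg).

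Among 12 genes of SREBP processing and sterol sensing, 0 were higher (beside 13.9% of all genes tested) and 3 lower (25.0%, beside 14.0%), and the median log2 fold change was -0.13. Neither protease that cleaves SREBPs was called, and the 95% interval was -0.19 to 0.18 for Mbtps1 and -0.17 to 0.20 for Mbtps2. The lower genes were Tmem97 (log2 fold change -0.52), a sterol-regulated membrane protein, Ubxn8 (-0.43) and Erlin1 (-0.30), which act in degradation at the endoplasmic reticulum. Ubxn8 had an adjusted p of 0.131 and 0.114 without CNT-7 rats 3 and 5 and of 0.14 and 0.129 without CNT-T rats 2 and 13, over a range of 0.0269 to 0.14 (edgeR or DESeq2, Benjamini-Hochberg).

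Of 17 genes of sterol uptake, storage and efflux, 6 were higher (35.3%, beside 13.9% of all genes tested) and 0 lower (beside 14.0%), and the median log2 fold change was 0.20. The groups did not overlap in 3 of the 17 (17.6%, beside 24.9% of all genes tested). Abcg1, which exports cholesterol, was at 236, 241, 203 and 255 CPM in CNT-7 rats 3, 5, 10 and 11 and at 97.3, 107, 135 and 126 CPM in CNT-T rats 1, 2, 12 and 13. Its lowest CNT-7 rat was well above its highest CNT-T rat, and the log2 fold change was 1.01 (SE 0.12; adjusted p = 0.00063, edgeR's quasi-likelihood test, Benjamini-Hochberg adjusted). Mylip, a ubiquitin ligase that limits lipoprotein uptake, was higher by 0.64, and Scarb1, a receptor for high-density lipoprotein, by 0.46 on the log2 scale. Vldlr, a lipoprotein receptor, had the largest log2 fold change of the list, 2.02, at 2.40, 1.47, 3.97 and 0.941 CPM against 0.326, 0.207, 0.297 and 1.36 CPM, so that CNT-7 rat 11 lay below CNT-T rat 13. Without CNT-T rat 13 its log2 fold change was 2.975, and without CNT-7 rat 10 it was 1.572. Its adjusted p (edgeR or DESeq2, Benjamini-Hochberg) was 0.128 without CNT-7 rat 10 and 0.112, 0.123 and 0.132 without CNT-T rats 1, 2 and 12, of 0.00832 to 0.132 over the 12 alternatives that kept the gene.

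Of 30 further fatty acid genes, 22 were tested, of which 3 were higher and 2 lower (22.7% called, beside 27.9% of all genes tested), and the median log2 fold change was -0.10. Dgat2, which completes triglyceride synthesis, was higher by 1.49 on the log2 scale, and Scd2 was the second of the 3. Slc25a1, the mitochondrial citrate exporter, was higher by 0.29, but its adjusted p (edgeR or DESeq2, Benjamini-Hochberg) was 0.199, 0.208 and 0.107 without CNT-7 rats 3, 10 and 11, 0.197, 0.157 and 0.193 without CNT-T rats 2, 12 and 13, 0.102 with upper-quartile normalization, 0.134 with no filter on low counts and 0.117 with a term for the number range, of 0.0705 to 0.208 in all. Mid1ip1, an activator of acetyl-CoA carboxylase, was lower with a log2 fold change of -0.46, in the same direction as Acaca. Hacd2, a dehydratase of fatty acid elongation, was at 62.7, 64.0, 63.9 and 59.5 CPM after CNT-7 and at 85.0, 80.0, 83.3 and 82.6 CPM after CNT-T. Both groups of Hacd2 were tight and lay apart, and the log2 fold change was -0.40 (SE 0.057; adjusted p = 0.0016, edgeR's quasi-likelihood test, Benjamini-Hochberg adjusted).

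Proliferation genes moved with the groups, and all 21 of 21 were lower in CNT-7, beside 14.0% of all genes tested. The study had already described strong expression of several cell cycle genes after CNT-T from its RNA sequencing. This list was chosen with earlier results known. The groups did not overlap in 20 of the 21 (95.2%), beside 24.9% of all genes tested. Their summed level was 1090, 847, 650 and 1520 CPM in CNT-7 rats 3, 5, 10 and 11 and 2170, 2460, 2420 and 2450 CPM in CNT-T rats 1, 2, 12 and 13, with Mki67 the most abundant and none at 0. CNT-7 rat 11 was thus nearest to the CNT-T rats and CNT-7 rat 10 farthest from them. The 4 with the largest falls were Top2a (log2 fold change -1.68), Mki67 (-1.64), Cdk1 (-1.40) and Tk1 (-1.38). Among the CNT-7 rats, rat 11 was the highest in 5 of the 29 tested members (17.2%, beside 26.9% of all genes tested). It was the lowest in 14 (48.3%, beside 27.6%). The 5 in which rat 11 was highest were Fasn and Acat2 (lower in CNT-7), Insig1 and Srebf1 (higher) and Tm7sf2 (not called). Of the other members called lower, Acaca was lowest in rat 11 and Dhcr7 was lowest in rat 10. The part of proliferation in the differences of the lipid synthesis genes was not tested.

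Markers of other cells were mostly at low levels. Adipocyte markers summed to 167, 237, 211 and 211 CPM after CNT-7 and to 326, 297, 324 and 269 CPM after CNT-T, and did not overlap. Cfd, the most abundant of them, was lower in CNT-7 (log2 fold change -0.65), Adipoq was not called at 0.17 and lay between 19.3 and 38.8 CPM, and the 6 other markers were at 0.637 CPM or less in every rat. Plin1, which coats lipid droplets of adipocytes, had 0 to 4 counts. Hepatocyte markers summed to at most 0.0724 CPM and mesothelial markers to at most 0.939 CPM. The 6 T cell markers summed to 5.32, 11.3, 6.47 and 4.21 CPM after CNT-7 and to 4.14, 3.75, 3.79 and 3.97 CPM after CNT-T, without overlap and with none at 0 in all rats. Lck, the most abundant, was not called (log2 fold change -0.25), and Cd2 was higher (3.48). The 5 dendritic cell markers summed to 9.13, 11.6, 6.14 and 5.61 CPM against 8.38, 6.74, 5.96 and 4.37 CPM, with overlap. Zbtb46, the most abundant, was not called (-0.22), and Ccr7 (3.80) and Clec9a (1.76) were higher. Neutrophil markers lay between 25.0 and 68.0 CPM in sum, mostly Csf3r, with 1 marker called lower (S100a8, log2 fold change -1.46) and Mpo at 0 in every rat. Eosinophil markers lay between 146 and 306 CPM, nearly all Siglec5, with Epx at 0. CNT-7 rat 3 stood apart in Ccr3, at 8.74 CPM beside at most 0.637 CPM in the other rats, and in Il5ra, with 17 counts beside 0 or 1. B cell markers reached 7.97 CPM in CNT-7 rat 5 and at most 2.13 CPM elsewhere, with Ighm the most abundant, and mast cell markers, led by Cpa3, reached at most 2.40 CPM. The part of these cells in the differences was not tested.

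Promoter sequence was described because the choice of members did not use it. RefSeq promoters (GRCr8, 300 bases around the start of a gene) matched 25 of the 32 members with 26 entries, Srebf1 having 2. Acaca, Elovl6, Fasn, Fdft1, Pmvk, Sqle and Stard4 had no entry. The sterol response element core TCACNCCAC, searched on both strands, was in 0 of the 26 promoters. It was in 1.12% of all 33469 promoters in the table and 0.996% of the promoters of tested genes. With shares this low, 0 matches in 26 promoters do not set the members apart. For this element, only these letters were searched. CCAAT, the letters recognised by NF-Y, was on either strand in 20 of 26 (76.9%), beside 37.5% of all promoters and 38.1% of the 9841 promoters of tested genes. GGGCGG, the letters of a GC box, was in 22 of 26 (84.6%), beside 33.1% and 61.3%. ATTGG and GGGCGG can share bases at their ends. CCAAT occurred at least 2 times in 11 of 26 (42.3%), beside 11.2% of all promoters and 14.1% of the promoters of tested genes. Mvk and Nsdhl held 5 each. A match describes letters in this window and not a bound site. The promoters printed here were chosen, after the values were seen, as examples from each of 3 roles among the members that were higher in CNT-7 with no overlap. Srebf1 has separate starts, which counts per gene cannot tell apart. Capitals mark CCAAT or, for the other strand, ATTGG.
Hmgcs1, chr2:53382054-53382353 (+): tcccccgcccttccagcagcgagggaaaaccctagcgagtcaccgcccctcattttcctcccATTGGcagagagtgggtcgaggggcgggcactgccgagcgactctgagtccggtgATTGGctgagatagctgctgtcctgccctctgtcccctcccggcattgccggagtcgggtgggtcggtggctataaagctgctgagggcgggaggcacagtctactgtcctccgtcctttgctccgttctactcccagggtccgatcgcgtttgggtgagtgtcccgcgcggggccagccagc
Hsd17b7, chr13:84722705-84723004 (-): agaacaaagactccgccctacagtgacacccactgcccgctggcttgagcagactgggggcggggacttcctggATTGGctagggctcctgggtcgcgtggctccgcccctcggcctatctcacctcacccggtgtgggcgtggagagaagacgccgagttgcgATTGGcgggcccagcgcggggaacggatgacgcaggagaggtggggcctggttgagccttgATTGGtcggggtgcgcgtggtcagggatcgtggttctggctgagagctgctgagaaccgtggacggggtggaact
Insig1, chr4:8057720-8058019 (-): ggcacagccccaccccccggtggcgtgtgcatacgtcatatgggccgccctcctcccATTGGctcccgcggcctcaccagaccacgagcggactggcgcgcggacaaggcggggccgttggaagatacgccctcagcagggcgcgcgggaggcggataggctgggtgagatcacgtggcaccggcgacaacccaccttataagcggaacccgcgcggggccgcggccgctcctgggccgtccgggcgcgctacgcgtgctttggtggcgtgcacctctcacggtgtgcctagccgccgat
Srebf1, chr10:45529115-45529414 (-): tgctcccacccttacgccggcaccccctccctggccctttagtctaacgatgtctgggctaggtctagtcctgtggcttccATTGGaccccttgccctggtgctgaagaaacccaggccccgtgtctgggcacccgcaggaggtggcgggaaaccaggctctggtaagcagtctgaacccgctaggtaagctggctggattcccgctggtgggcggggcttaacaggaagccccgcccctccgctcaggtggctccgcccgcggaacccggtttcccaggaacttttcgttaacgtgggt
Srebf1, chr10:45518961-45519260 (-): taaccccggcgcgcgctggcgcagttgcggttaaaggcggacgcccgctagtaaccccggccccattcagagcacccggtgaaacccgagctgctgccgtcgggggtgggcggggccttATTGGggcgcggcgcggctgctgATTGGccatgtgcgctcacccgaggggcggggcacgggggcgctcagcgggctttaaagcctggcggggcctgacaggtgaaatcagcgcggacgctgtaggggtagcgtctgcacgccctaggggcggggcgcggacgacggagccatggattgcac
Hsd17b7 held 3 matches, at positions 75, 165 and 226 counted from the 5′ end, Hmgcs1 held 2 and Insig1 held 1. Of the Srebf1 entries, the one at chr10:45529115-45529414 held 1 and the other 2. Of the other members higher with no overlap that had an entry, Acss2 and Insig2 each held 1 match and Scd held 0.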

How the data were processed

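Libraries of 4 CNT-7 rats and 4 CNT-T rats were used. According to the submitters' processing notes and the study's methods, the authors ran Salmon (Rnor_6.0) and deposited an estimated count per gene, already whole, so that rounding changed no value. Length offsets were not used here. Salmon's version is not given in the sources used here. 0 columns were left unused.

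edgeR 4.0.16 in R 4.3.3 (filterByExpr at its defaults, count 10 and total 15; TMM, quasi-likelihood test, Benjamini-Hochberg over all 12124 genes tested) compared the groups, and genes were called at an adjusted p under 0.10. CPM used TMM library sizes. The members and lists were chosen with earlier results of these data known, so no test over a list was made. Values of each rat were given for members called without overlap and for the 5 regulators by rule, and for some others (Acly, Elovl6, Fads1, Fads2, Sc5d and Idi1 among them) chosen after the values were seen. From each other list, up to 4 rises and 4 falls with at least 1 CPM on average were named, and Mbtps1, Mbtps2 and markers were named besides. Alternatives were DESeq2 1.42.0, upper-quartile normalization, no filter, at least 10 counts in every rat, the range of the rat numbers (up to 5 or from 10) as a term, adjusted p under 0.05, and each rat left out. The procedure was tested on simulated data. Promoters came from RefSeq GRCr8 by symbol.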

Additional observations from a re-analysis of the deposited data

Results flagged for a closer look

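Among 58 groups of 4 rats, 2 for each tested member, 1 held a rat far from the other 3, where chance gives about 5% (2.9 of 58). Acat2 was at 6.95 CPM in CNT-7 rat 11 and between 4.62 and 4.73 CPM in the other CNT-7 rats, a gap of 0.953 of the whole range, beyond Dixon's 95% critical value for 4 samples.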

How the results depend on the processing

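Of the 13 called members, 5 (Srebf1, Insig1, Acss2, Acaca and Fasn) kept their direction and stayed under an adjusted p of 0.10 (edgeR or DESeq2, Benjamini-Hochberg) in all 13 alternatives run for single genes, and 8 did not in at least 1, with 0 changes of direction. At an adjusted p under 0.05, 4 members were higher and 2 lower in place of 9 and 4. Of the 12124 genes tested, 2507 were called at that threshold, in either direction, in place of 3383. Leaving out each rat in turn gave 4 to 8 members higher, 2 to 4 lower and 2578 to 3515 genes called in all. Each such fit has fewer rats. DESeq2, upper-quartile normalization and at least 10 counts in every rat each gave 9 higher and 4 lower. Of all genes tested, these called 14.7%, 13.7% and 13.4% higher and 15.3%, 14.2% and 14.3% lower. No filter gave 7 and 5, beside 9.91% and 9.74% of the 16667 genes then tested. A term for the rat-number range gave 8 and 5, beside 13.7% and 14.0%. The median log2 fold change of the members stayed between 0.10 and 0.16, that of the sterol synthesis enzymes between 0.06 and 0.14 and that of the fatty acid synthesis enzymes between -0.36 and -0.17, with 8 enzymes in place of 5 when no filter was used.

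Direction turned in 6 of the 16 members not called, whose log2 fold changes were near 0. Without each rat in turn, Mvk ran from -0.151 to 0.115, Mvd to 0.172, Fdft1 from -0.109, Lss to 0.349, Sc5d to 0.276 and Stard4 from -0.13. Mvk was at 0.033 without CNT-7 rat 3, 0.029 without CNT-7 rat 10 and 0.115 without CNT-T rat 1. Fdft1 was at 0.001 without CNT-7 rat 11 and at 0.031 and 0.015 without CNT-T rats 12 and 13. Lss was at -0.021 without CNT-7 rat 5 and at -0.124 without CNT-T rat 12. Mvd was at -0.019 without CNT-T rat 13 and Sc5d at -0.02 without CNT-T rat 1. Stard4 was at 0.078, 0.082 and 0.067 without CNT-7 rat 11, CNT-T rat 12 and CNT-T rat 13, at 0.002 with at least 10 counts in every rat and at 0.014 with a term for the rat-number range. The cause was not tested. No paired analysis was possible because the groups share no rat number. Fads1, Fads2 and Elovl6 were tested only with no filter, on 42 counts or fewer per rat, so that their levels are known less well at this depth than those of the other members.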
